A study of Saccharomyces cerevisiae with 4 samples.

Results

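The small nucleolar RNA (snoRNA) genes described here are those of Saccharomyces cerevisiae that guide the modification of ribosomal RNA (rRNA). They were chosen as the genes of biotype snoRNA in the RefSeq gene table of assembly R64, without SNR17A, SNR17B, SNR30, SNR10, SNR128 and SNR52, and without the 5 snoRNA genes on chromosome XI, where the gene table and the deposited positions did not line up. This left 65 of the 76 snoRNA genes, among 6051 nuclear genes used. The study mapped where 3 cytoplasmic mRNA decay proteins lie on chromatin by ChIP-exo, in which crosslinked DNA pulled down with IgG beads is trimmed by exonuclease up to the edge of the bound protein. Strains of the yMC458 background, grown in YPD, carried a TAP tag on Xrn1, on Dcp2 or on Lsm1, and the No-TAP strain had none. The TAP tag holds protein A, which the IgG beads bind. Each of the 4 strains is represented by 1 table, although the design text speaks of replicates, so no difference between strains could be tested against replicate error. Xrn1 is the main 5′-to-3′ exonuclease of the cytoplasm. Dcp2 removes the cap of mRNAs, and Lsm1 belongs to the Lsm ring that binds their 3′ ends and promotes decapping. Where 4 values stand in a row below without names, they are for the tagged Xrn1, Dcp2 and Lsm1 strains and then for the untagged strain, and 3 values are for the tagged strains in that order.

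As background, box C/D snoRNAs base-pair with rRNA and position the methyltransferase Nop1, and box H/ACA snoRNAs do the same for the pseudouridine synthase Cbf5. In yeast most of these RNAs are transcribed by RNA polymerase II from promoters of their own, others are cut from a polycistronic precursor by the RNase III Rnt1, and a few are released from the introns of protein-coding genes. Transcription of those outside introns ends through the Nrd1, Nab3 and Sen1 pathway. Many mature 5′ ends are formed by Rnt1 cleavage and trimming by Rat1, the nuclear relative of Xrn1.

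The 65 genes comprised 39 of box C/D and 26 of box H/ACA. By gene arrangement, 42 had a promoter of their own (18 C/D and 24 H/ACA), 16 lay in 5 polycistrons and 7 lay inside introns. The mature RNAs were 78 to 1004 bp long in the gene table. An assay of DNA cannot show what an RNA does, so the label rests on the gene table and on what is known of each gene. Within it, SNR190 acts in rRNA processing, and SNR4 and SNR45 guide acetylation of the small subunit rRNA.

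In the gene and 200 bp on each side, sequence tags were counted, and also distinct positions, where each base and strand holding a tag counts once. Distinct positions are the main measure, because tags at 1 base can be PCR copies and the mean was 7.13 to 8.60 tags per position. Outside chromosome XI and the ribosomal DNA repeat, the tables held 16084, 39499, 21792 and 4123 positions, with 138379, 315910, 183199 and 29387 tags. The No-TAP library is therefore the least deep by a wide margin, and a value in it of a few positions is imprecise. Densities are given as a fold over an even spread of each library's own positions over the nuclear genome. All intervals in parentheses are exact 95% intervals for counting error only. They leave out the spread between genes, so for a class of genes they are too narrow, also where genes share a window. In Dcp2-TAP, for example, genes with their own promoter had a mean of 15.0 positions with a standard deviation of 10.5, wider than counting error alone gives. The build behind the deposited positions is not given in the sources used here. Moving the gene table in steps of 10 bp to find most positions before start codons gave best shifts of -60 to 30 bp on the other 15 chromosomes, so distances below carry an uncertainty of that order.

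snoRNA genes with their own promoter held several times the positions of an even spread in all 4 libraries, the untagged one included. Their windows held 225, 618, 240 and 57 positions. The density over an even spread was 6.38 (5.57 to 7.27) for Xrn1-TAP, 7.13 (6.58 to 7.72) for Dcp2-TAP, 5.02 (4.41 to 5.70) for Lsm1-TAP and 6.30 (4.77 to 8.17) without a tag. No-TAP thus stood between the tagged libraries, and its interval overlapped each of theirs. The snoRNA genes inside polycistrons or introns were less dense, at 3.37, 2.81, 2.37 and 3.75 in the same order. Within a library, the genes with their own promoter exceeded those in polycistrons or introns by a ratio of 1.89 (1.36 to 2.70), 2.54 (2.02 to 3.22) and 2.12 (1.51 to 3.04) with a tag. In No-TAP the ratio was 1.68 (0.891 to 3.44), an interval that holds 1 and also holds each of the 3 tagged ratios. The size of the ratio moved with the windows, in Dcp2-TAP to 1.59 with a flank of 500 bp and 3.98 without the leading gene of each polycistron, in Lsm1-TAP to 3.25 with a flank of 100 bp, and in No-TAP to 5.19 with that flank.

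**Figure D1:**
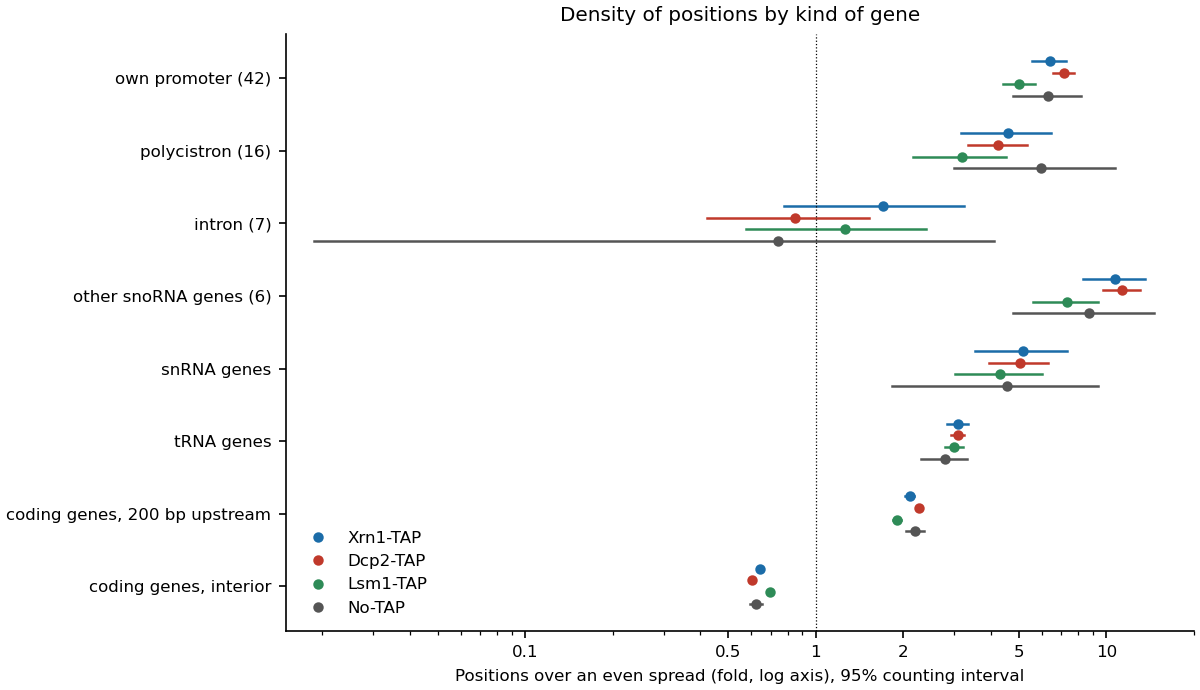
Density of distinct positions over an even spread (horizontal log axis, fold) for kinds of genes (rows), with exact 95% counting intervals as bars and 1 point per library. The snoRNA genes with their own promoter lie between 5.02 and 7.13 in all 4 libraries, the intron genes near 1, and the No-TAP point (grey) falls beside the tagged ones in each row.

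The genes in polycistrons were denser than those in introns. Polycistron windows had densities of 4.59, 4.25, 3.18 and 5.96, each with an interval above 1. Intron windows had densities of 1.71 (0.780 to 3.24), 0.849 (0.424 to 1.52), 1.26 (0.576 to 2.39) and 0.739 (0.0187 to 4.12), with all 4 intervals holding 1. Polycistron genes exceeded intron genes 2.69 (1.26 to 6.39), 5.0 (2.64 to 10.4), 2.53 (1.17 to 6.03) and 8.07 (1.17 to 347) times, the last from 11 against 1 positions. Set against the genes with their own promoter, polycistrons were lower in Dcp2-TAP (ratio of own promoter to polycistron 1.68, 1.32 to 2.16) and Lsm1-TAP (1.58, 1.08 to 2.38), while the intervals in Xrn1-TAP (1.39, 0.962 to 2.07) and No-TAP (1.06, 0.548 to 2.23) hold 1.

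The positions of genes with their own promoter lay mostly before the gene. The 200 bp upstream of the mature 5′ end had densities of 12.6, 13.8, 9.58 and 14.1, against 2.81, 3.98, 2.70 and 3.98 in the gene and 3.79, 3.70, 2.86 and 0.985 in the 200 bp downstream. Upstream positions made up 65.6% (59.1 to 71.8), 64.5% (60.6 to 68.2), 63.5% (57.1 to 69.6) and 74.6% (61.6 to 85.0) of the window's positions. The upstream flank was the fullest of the 3 zones at 28, 37, 30 and 21 of the 42 genes. Only 41, 42, 41 and 27 of them held any position. Upstream density exceeded gene density 4.50 (3.07 to 6.79), 3.47 (2.82 to 4.31), 3.55 (2.52 to 5.11) and 3.54 (1.83 to 7.38) times. With a flank of 500 bp this ratio was 2.40, 1.89, 1.95 and 2.00. Its interval held 1 with the genes moved 80 bp lower in Xrn1-TAP (1.12, 0.824 to 1.53) and Lsm1-TAP (1.13, 0.847 to 1.51), and with the genes moved 80 bp higher in No-TAP (1.37, 0.738 to 2.57). Upstream density was also above that of the 200 bp before the start codons of the 5666 coding genes, by 6.00 (5.05 to 7.08), 6.11 (5.51 to 6.76), 5.03 (4.25 to 5.92) and 6.42 (4.59 to 8.75) times. The No-TAP interval holds the value of each tagged library.

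By distance, the density fell away within 500 bp. The last 100 bp before the mature 5′ end held 98, 235, 99 and 26 positions, or 16.5, 16.1, 12.3 and 17.1 times an even spread. From 101 to 200 bp the fold was 8.62, 11.6, 6.99 and 11.9, and from 201 to 300 bp 5.38, 6.85, 4.59 and 4.59. From 301 to 500 bp it was 1.77, 1.71, 1.43 and 3.61. The fullest bin of 50 bp ended 51 bp before the mature 5′ end in Xrn1-TAP and No-TAP (17.8-fold and 18.4-fold) and just before that end in Dcp2-TAP and Lsm1-TAP (17.1-fold and 13.7-fold). Transcription of many snoRNA genes starts upstream of the mature end, and no start sites were used here, so these distances are from the mature RNA and not from the promoter's own start.

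**Figure D2:**
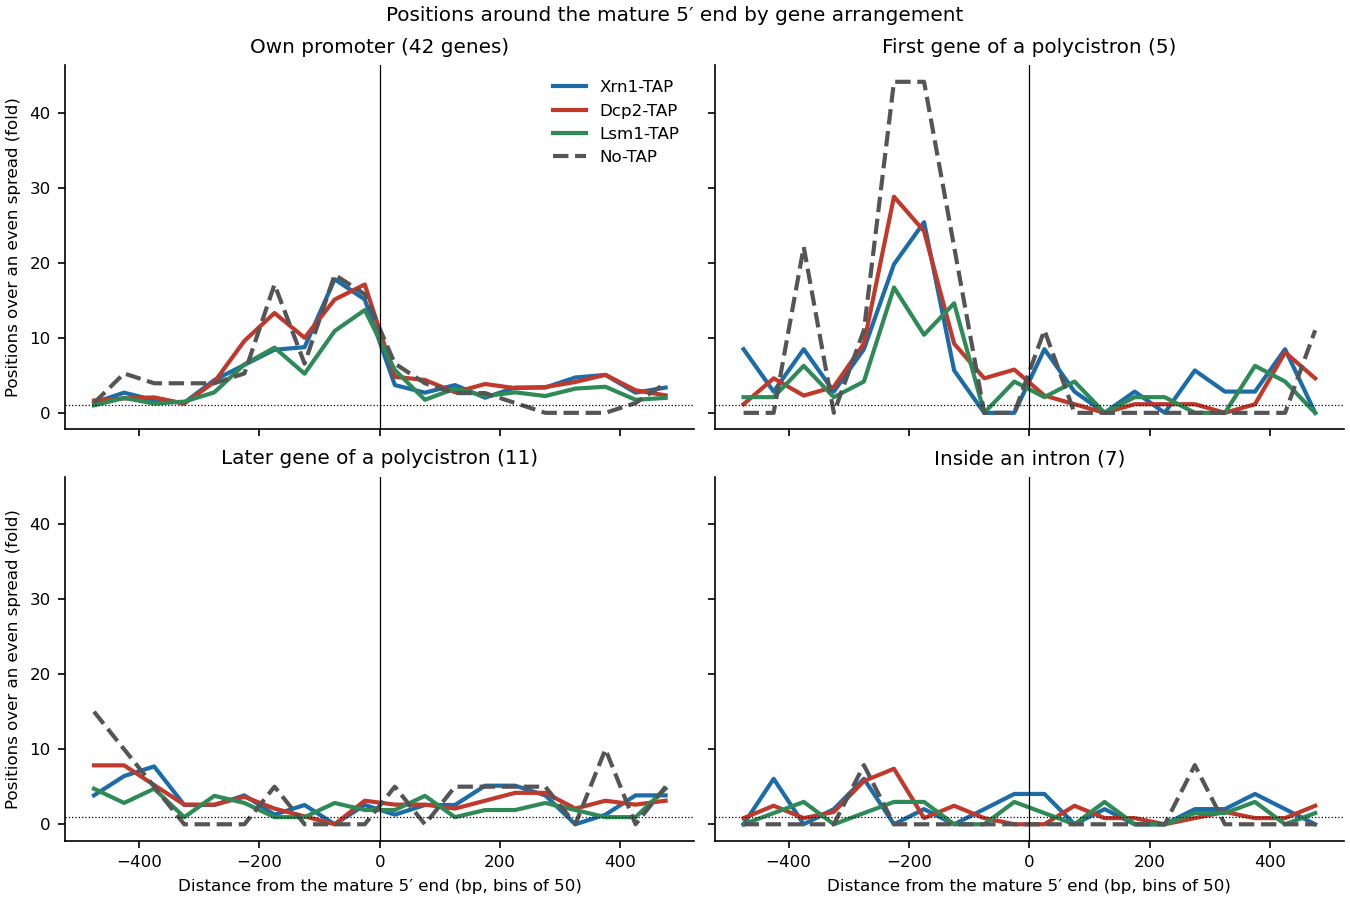
Density of distinct positions over an even spread (vertical axis, fold) by distance from the mature 5′ end (horizontal axis, bp, bins of 50) for the 4 gene arrangements, with a line per library and No-TAP dashed. Genes with their own promoter peak just before the mature end, the 5 leading genes of polycistrons peak near 200 bp before it, while the intron genes in Dcp2-TAP reach 7.40 in the bin from 250 to 201 bp before it, outside the 200 bp flank.

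In polycistrons the upstream flanks were dense at the leading genes and not detectably so at the later ones. The 5 leading genes had 11, 38, 14 and 6 positions in the 200 bp upstream, a density of 7.77, 10.9, 7.30 and 16.5. The 11 later genes had 5, 12, 7 and 1 there, a density of 1.63, 1.60, 1.69 and 1.28, with all 4 intervals holding 1. Leading exceeded later genes 4.76 (1.52 to 17.5), 6.85 (3.50 to 14.4), 4.32 (1.63 to 12.7) and 13.0 (1.57 to 597) times. Of the upstream positions of leading genes, SNR190 alone held 4, 16, 8 and 4. SNR41 held 3, 9, 5 and 0, and SNR78 held 3, 8, 1 and 0. SNR57 held 1, 3, 0 and 1, and SNR67 held 0, 2, 0 and 1. The ratio was not computed without SNR190. The leading genes did not differ detectably from genes with their own promoter in this zone, where the ratio of own promoter to leading gene was 1.63 (0.882 to 3.33), 1.26 (0.905 to 1.81), 1.31 (0.758 to 2.46) and 0.852 (0.360 to 2.45). Their fullest bins lay between 250 and 151 bp before the mature end, partly outside the 200 bp flank. From 201 to 400 bp upstream the density was 9.89, 10.9, 7.30 and 19.3. A flank of 100 bp misses most of this and turns the leading-to-later ratio to 0 in Xrn1-TAP and 0.880 in Lsm1-TAP. With a flank of 500 bp it was 2.14, 2.15, 2.11 and 3.04, and with the genes moved 30 bp lower its interval held 1 in Xrn1-TAP (2.16, 0.647 to 7.22).

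Taken as whole transcription units, the 5 polycistrons held 25, 76, 28 and 13 positions in the 400 bp before their leading gene. Their bodies, from the leading to the last of the member genes, held 9, 21, 14 and 2. Per kb, the upstream stretch exceeded the body 4.28 (1.93 to 10.4), 5.58 (3.41 to 9.53), 3.08 (1.57 to 6.34) and 10 (2.27 to 91.5) times. The largest unit, SNR78 to SNR72, encodes 7 C/D guides in 1374 bp, SNR74 and SNR77 for the small subunit rRNA and the others for the large subunit, with 6, 15, 3 and 2 positions upstream and 6, 12, 6 and 0 in the body. SNR190, which shares its precursor with the excluded SNR128, had the most positions upstream, with 9, 26, 11 and 6. SNR41, a C/D guide of the small subunit rRNA at the head of the SNR41, SNR70 and SNR51 unit, had 3, 15, 8 and 0. The unit headed by SNR57, also a small subunit guide, had 4, 11, 4 and 4, and that of SNR67, a large subunit guide, had 3, 9, 2 and 1. In Dcp2-TAP, the library with most positions, all 5 units thus had more positions in the 400 bp upstream than in the body.

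Among later genes, the fullest windows in Xrn1-TAP and Dcp2-TAP belonged to the last gene of a unit and held most of their positions past the gene. SNR72, a C/D guide of the large subunit rRNA, had 5, 11, 2 and 1 positions, of which 4, 6, 0 and 1 lay downstream, toward BUD22, the next coding gene on the same strand. SNR53, a C/D guide of the small subunit rRNA, had 5, 10, 4 and 1, of which 4, 7, 1 and 1 lay downstream, in a flank that also holds a tRNA gene on the other strand. SNR76, inside the 7-gene unit, had 2, 6, 4 and 0. What the neighbouring genes contribute to these flanks of SNR72 and SNR53 was not tested.

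The 42 genes with their own promoter varied widely, though few were empty in the tagged libraries. Their positions ranged from 0 to 14 with a median of 5 for Xrn1-TAP, and from 3 to 49 with a median of 13 for Dcp2-TAP. For Lsm1-TAP they ranged from 0 to 17 with a median of 5, and without a tag from 0 to 5 with a median of 1. Positions were present in all 3 tagged libraries at 40 of them, while 15 had none in No-TAP. The medians of tags were 44.5, 98.5, 41.5 and 3. The 12 fullest genes of each library held 53.7%, 52.1%, 55.3% and 66.1% of these genes' positions.

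**Figure D3:**
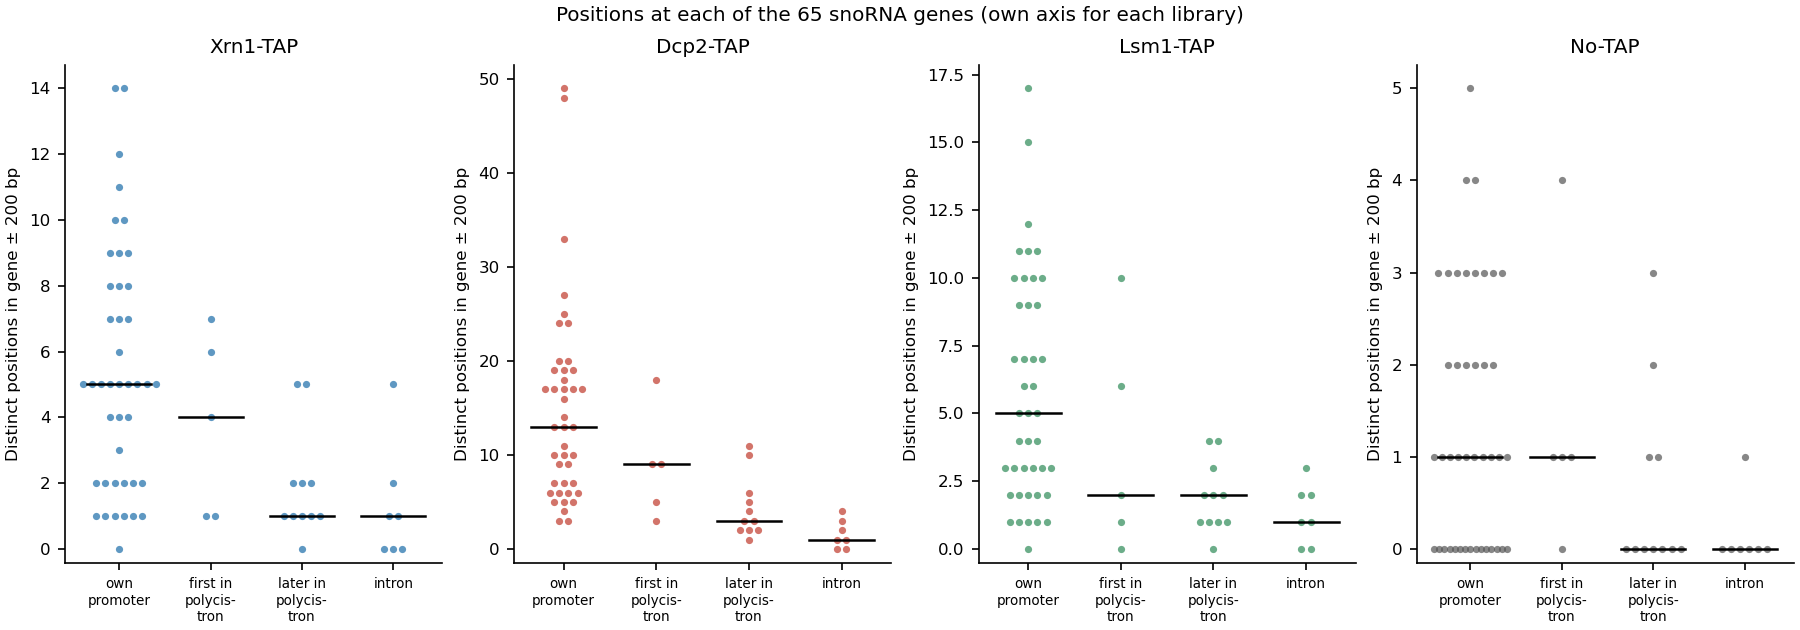
Distinct positions in the gene and 200 bp on each side (vertical axis) for each of the 65 snoRNA genes (points), by gene arrangement, in a panel per library with its own axis. Black lines are medians, and genes with their own promoter reach 14, 49, 17 and 5 positions while the 7 intron genes reach 5, 4, 3 and 1.

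Of the H/ACA genes, SNR11, a pseudouridylation guide of the large subunit rRNA, had 14, 49, 10 and 1 positions. The value of 49 was the highest count in Dcp2-TAP, at 21.4 times an even spread, with 29 of its positions upstream and 14 downstream. SNR37, another large subunit guide, had 8, 48, 17 and 3 positions and was the fullest in Lsm1-TAP. In Dcp2-TAP 14 of its positions lay in the gene, which is 386 bp long, and 25 upstream. SNR49, which guides pseudouridylation in both subunits, had 10, 27, 12 and 2. The large subunit guides SNR9, SNR3 and SNR32 had 9, 25, 9 and 1 positions, 10, 20, 7 and 3, and 9, 17, 10 and 1. SNR8, a large subunit guide, had 11, 24, 10 and 5 positions, the last being the highest No-TAP count of any of the 65.

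SNR31, a small subunit guide, and SNR5, a large subunit guide, are transcribed away from each other and share their upstream flank. SNR31 had 5, 17, 7 and 3 positions and SNR5 had 5, 18, 6 and 4, some of them counted for both genes. Their windows were merged in the densities and ratios of windows and zones, and in the counts by range of distance. The shares of positions, the bins of 50 bp and the counts by strand take each gene on its own.

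Of the C/D genes with their own promoter, SNR45, which guides acetylation of the small subunit rRNA, had 14, 33, 11 and 1 positions, the most of the C/D genes in Xrn1-TAP and Dcp2-TAP. These correspond to 17.3, 16.6, 10 and 4.82 times an even spread. SNR4, the other acetylation guide, had 9, 19, 10 and 3. SNR13, a methylation guide of the large subunit rRNA, had 8, 24, 15 and 3, and all but 8 of its 50 positions over the 4 libraries lay upstream. H/ACA and C/D genes did not differ detectably in upstream density, with ratios of H/ACA to C/D of 1.13 (0.804 to 1.60), 1.22 (0.992 to 1.5), 1.03 (0.738 to 1.45) and 1.15 (0.595 to 2.26).

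Each gene was tested against an even spread with a 1-sided Poisson test, with Benjamini-Hochberg adjustment over all 6051 genes and a threshold of 0.05. In Xrn1-TAP 28 of the 65 genes were called (43.1%), beside 4.66% of all genes. In Dcp2-TAP 35 were called (53.8%), beside 8.38%, and in Lsm1-TAP 21 (32.3%), beside 4.97%. In No-TAP 5 were called (7.69%), beside 1.67%. The 2 shares rest on unlike windows. Of the 6051 genes 5666 are coding, and their windows take in gene interiors. Such interiors lay at 0.642, 0.604, 0.697 and 0.624 times an even spread, whereas windows of the short snoRNA genes are mostly flank. The calls were mostly at genes with their own promoter, with 23, 30, 19 and 4 of 42. Among the 16 polycistron genes 4, 5, 2 and 1 were called, and among the 7 intron genes 1, 0, 0 and 0. SNR11 in Dcp2-TAP had the smallest adjusted p, 8.28e-45 by the Poisson test, and SNR45 had 2.73e-11, 1.03e-26 and 1.54e-06 in the tagged libraries. Such p measure a departure from an even spread of independent positions, not an excess over similar flanks. The 200 bp before coding genes also lay above an even spread, at 2.11, 2.26, 1.91 and 2.19 times.

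The number called depended on depth. When each tagged library was thinned to the 4123 positions of No-TAP, the mean over 20 draws was 3.65, 5.20 and 2.60 genes called, beside the 5 of No-TAP. Over all genes 1.52%, 1.60% and 1.35% were called at that depth, beside 1.67% in No-TAP. The ranges over the draws were 0 to 6, 2 to 10 and 0 to 5. At this depth no difference in the number called between tagged and untagged libraries was detectable.

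The 5 genes called in No-TAP were SNR8, SNR40, SNR190, SNR5 and SNR71. SNR40, a C/D guide for both subunits, had 6, 19, 4 and 4 positions, with 3 of the 4 in No-TAP upstream. SNR190 had 7, 18, 10 and 4 positions, with all 4 in No-TAP upstream of the gene. SNR71, a C/D guide of the large subunit rRNA, had 2, 13, 11 and 3. Their adjusted p in No-TAP by the Poisson test was 0.000387 for SNR8, 0.0036 for SNR40, 0.00611 for SNR190, 0.00642 for SNR5 and 0.0491 for SNR71. SNR8, SNR5 and SNR190 were called in all 3 tagged libraries too.

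The tagged libraries were then set against No-TAP over all 65 genes, to see whether a tag adds positions beyond what the beads recover without one. In number, the merged windows held 267, 704 and 280 positions with a tag and 69 without, or 3.87, 10.2 and 4.06 times as many. As a share of each library's positions the ratio to No-TAP was 0.992 (0.759 to 1.31) for Xrn1-TAP, 1.07 (0.831 to 1.38) for Dcp2-TAP and 0.768 (0.588 to 1.01) for Lsm1-TAP. The whole libraries held 3.90, 9.58 and 5.29 times as many positions as No-TAP. All 3 intervals hold 1, and they cover counting error in these libraries only. The same ratios for the genes with their own promoter were 1.01 (0.754 to 1.38), 1.13 (0.862 to 1.51) and 0.797 (0.595 to 1.08). These ratios compare libraries, not conditions, and equal amounts of input cannot be assumed.

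Zone by zone, a difference from No-TAP appeared at either end of the genes with their own promoter. Upstream, the ratio was 0.897 (0.633 to 1.30), 0.982 (0.713 to 1.38) and, in Lsm1-TAP, 0.680 (0.480 to 0.982). Downstream, 45, 108 and 46 tagged positions stood against 3 in No-TAP, a ratio of 3.85 (1.23 to 19.3), 3.76 (1.25 to 18.5) and 2.90 (0.933 to 14.6). Positions downstream were found at 27, 34, 26 and 3 of the 42 genes. Of the 42 windows, 4 also hold a coding start codon and 2 another RNA gene. The 37 genes with neither had 39, 98, 40 and 3 positions downstream. Of the tagged downstream positions, SNR11 had 3, 14 and 3, and SNR37 had 2, 9 and 3. The downstream comparison was picked after its values were seen and is 1 of 9 sets of windows compared with No-TAP. It rests on 3 No-TAP positions, and the interval holds 1 in every tagged library with a flank of 100 bp (2.05, 1.60 and 1.83) or of 500 bp (1.57, 1.66 and 1.22). The lower Lsm1-TAP value upstream was likewise not past its interval with a flank of 100 bp (0.720, 0.464 to 1.16).

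**Figure D4:**
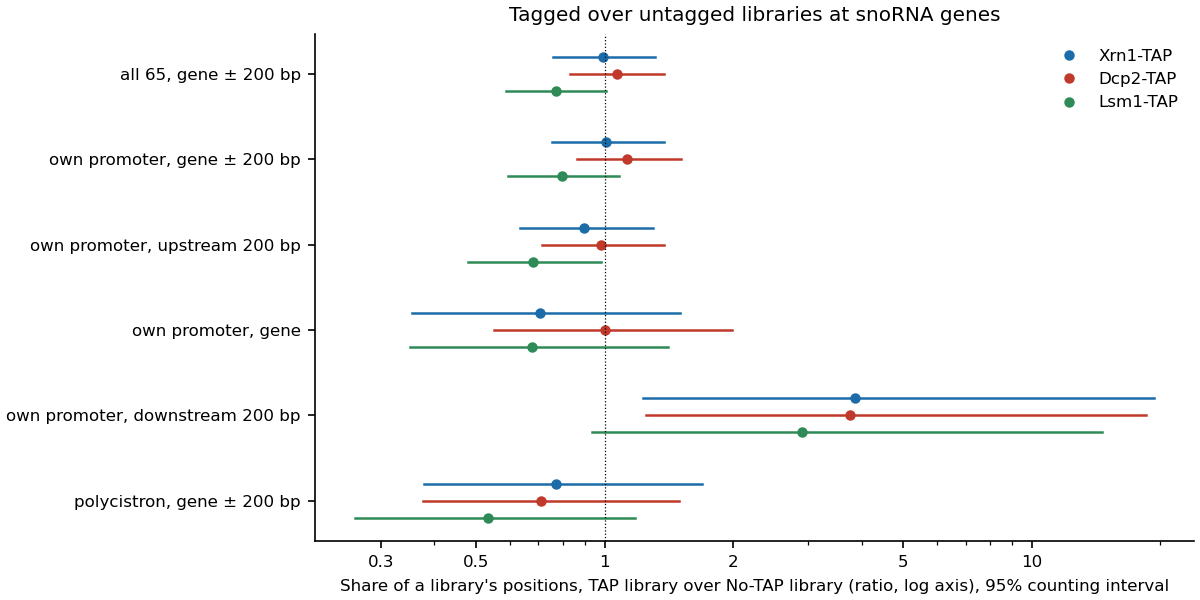
Share of a library's positions in each set of windows, tagged over No-TAP (horizontal log axis, ratio), with exact 95% counting intervals as bars and a point per tagged library. The points for all 65 genes lie at 0.992, 1.07 and 0.768, and among the sets plotted only the downstream flank of genes with their own promoter reaches 2.90 to 3.85, from 3 No-TAP positions.

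Per gene, a difference was counted where the interval of the scaled ratio left out 1, with no adjustment over genes. No member exceeded No-TAP by positions in any tagged library. The few No-TAP positions left little room for such a call. Even SNR11 in Dcp2-TAP, with 49 positions against 1, had a ratio of 5.11 (0.876 to 206). The lack of calls therefore does not show that a tag adds nothing at single genes. Over all genes 0.0661%, 0% and 0.0331% exceeded it. SNR70, a C/D guide of the small subunit rRNA in the middle of its polycistron, had 1, 1, 1 and 3 positions and was below No-TAP in Dcp2-TAP and Lsm1-TAP. No member was below No-TAP in Xrn1-TAP, and the share of all genes below was 0.331%, 0.562% and 0.397%. By tags, which count PCR copies as independent, 16, 20 and 12 members were above No-TAP and 14, 16 and 16 below. Over all genes 25.1%, 26.0% and 26.1% were above by tags and 17.2%, 17.0% and 17.2% below, so calls by tags went both ways among the members as among all genes.

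Between the tagged libraries, Lsm1-TAP had the smallest share of its positions at these genes. Dcp2-TAP exceeded it 1.39 (1.21 to 1.60) times and Xrn1-TAP 1.29 (1.09 to 1.53) times, while Dcp2-TAP over Xrn1-TAP was 1.07 (0.931 to 1.24). The 6 excluded snoRNA genes had the same order, with Dcp2-TAP over Lsm1-TAP at 1.55 (1.15 to 2.10) and Xrn1-TAP over Lsm1-TAP at 1.46 (1.02 to 2.10). Lsm1-TAP was also lowest in the 200 bp before coding genes, at 2.11 (2.03 to 2.18), 2.26 (2.21 to 2.31) and 1.91 (1.85 to 1.97) times an even spread. In the interiors of coding genes it was highest, at 0.642, 0.604 and 0.697. The lower share in Lsm1-TAP was thus not particular to snoRNA genes. With 1 library per strain, such a difference cannot be told apart from one between preparations.

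ChIP-exo positions on the 2 strands mark opposite edges of a crosslinked protein and were therefore counted by strand. Upstream of the genes with their own promoter, 52.3% (44.0 to 60.6), 54.1% (49.1 to 59.0) and 59.1% (43.2 to 73.7) of positions were on the gene's strand in Xrn1-TAP, Dcp2-TAP and No-TAP, and 41.3% (33.5 to 49.5) in Lsm1-TAP. The median distance to the mature 5′ end was 80.5, 93, 83.5 and 83.5 bp on the gene's strand and 68, 67, 71 and 84 bp on the opposite strand, with 26 and 18 positions in the untagged library. The medians were thus farther upstream on the gene's strand in the tagged libraries, a difference that was not tested because the genes differ in where their promoters lie. Within the gene, 33.3% (18 to 51.8), 40.9% (31.8 to 50.4), 46.5% (31.2 to 62.3) and 33.3% (9.92 to 65.1) of positions were on the gene's strand.

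**Figure D5:**
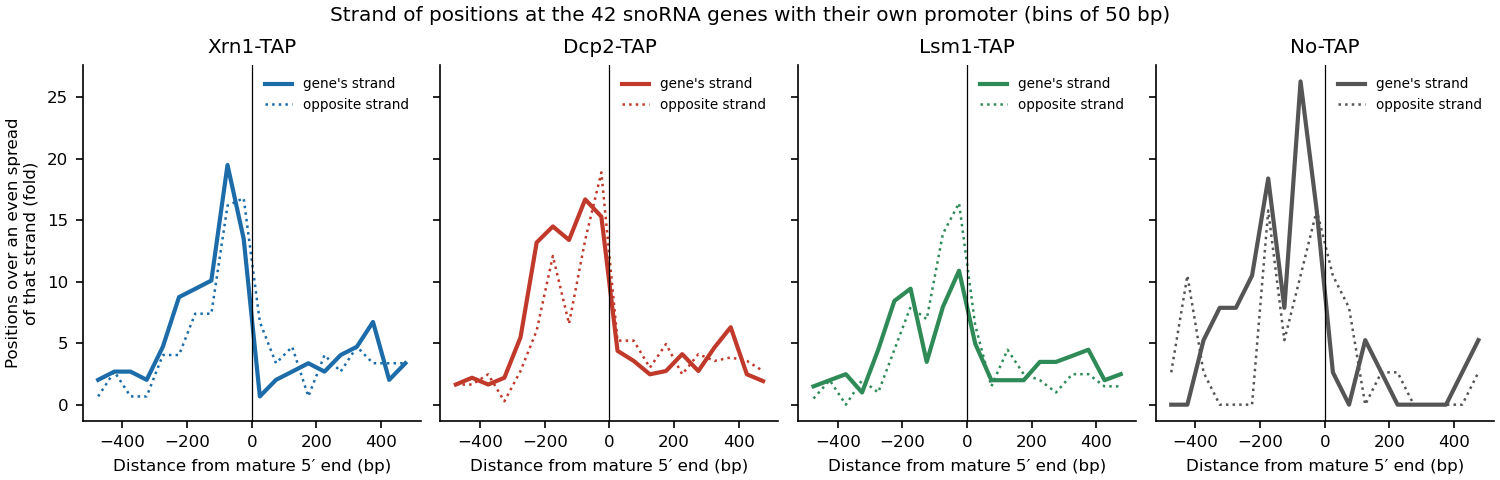
Density of positions on the gene's strand (solid) and on the opposite strand (dotted) over an even spread of that strand (vertical axis, fold) by distance from the mature 5′ end (horizontal axis, bp, bins of 50), for the 42 genes with their own promoter, in a panel per library. Both strands peak in the 100 bp before the mature end in the 3 tagged libraries, as does the gene's strand in No-TAP, whose lines rest on 26 and 18 upstream positions.

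The 7 intron genes could be set beside the promoters of their hosts. SNR18, a C/D guide of the large subunit rRNA in EFB1, which encodes a translation elongation factor subunit, had 5, 4, 3 and 0 positions and was called in Xrn1-TAP (adjusted p = 0.021 by the exact 1-sided Poisson test). Its window reaches past the start codon of EFB1 and so takes in part of that promoter. SNR44, an H/ACA guide for both subunits in the ribosomal protein gene RPS22B, had 2, 3, 2 and 0. SNR39, a C/D guide of the large subunit rRNA in the ribosomal protein gene RPL7A, had 1, 2, 0 and 1. By contrast, the 300 bp before the host start codons held 20, 67, 27 and 5 positions in all. Per kb, that exceeded the intron snoRNA windows 3.95 (1.72 to 9.84), 10.8 (5.67 to 22.7), 5.33 (2.43 to 12.9) and 8.88 (0.993 to 419.9) times. Without EFB1 and SNR18 the ratios were 6.72 (2.14 to 27.8), 13.1 (5.90 to 34.1), 6.87 (2.72 to 20.6) and 7.17 (0.710 to 353). The intron windows exceeded the interiors of coding genes in Xrn1-TAP alone (2.66, 1.21 to 5.04), while the other ratios were 1.41 (0.702 to 2.52), 1.81 (0.826 to 3.43) and 1.18 (0.0300 to 6.61). Of the 9 Xrn1-TAP positions in the intron windows, 5 belonged to SNR18. Without SNR18 the windows held 4, or 1.24 per kb, beside 0.909 per kb in the interiors of coding genes. Over an even spread, which is a different baseline, their density was then 0.876 (0.239 to 2.24).

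The protein-coding genes of the snoRNA pathway were tested in the 300 bp before the start codon, with adjustment over the 5666 coding genes. Of these, 4.48%, 10.9%, 5.89% and 0.741% were called. Of the 34 genes listed, 33 were measured, and DBR1, the debranching enzyme needed to release intron snoRNAs, lies on chromosome XI and was not analysed here. None of the 8 core snoRNP protein genes was called, with the exception in Dcp2-TAP of CBF5, the pseudouridine synthase, which had 3, 5, 2 and 0 positions. NOP1, the methyltransferase, had 0, 4, 1 and 2. None of the 9 assembly factor genes was called in any library. Of 9 processing and termination factor genes, Dcp2-TAP called LHP1, NRD1 and TGS1, and Lsm1-TAP called NRD1. NRD1, a termination factor of snoRNA genes, had 0, 7, 4 and 1 positions, TGS1, which caps snoRNAs with trimethylguanosine, had 0, 6, 0 and 0, and LHP1, the yeast La protein, had 0, 6, 1 and 0. Of the 7 intron host genes 2, 5, 4 and 0 were called. Their medians were 2, 9, 4 and 1 positions, beside 0, 1, 1 and 0 over all coding genes. RPL7B had 7, 14, 11 and 2 positions, EFB1 had 5, 16, 4 and 1, and IMD4 had 2, 16, 4 and 0. Dcp2-TAP also called ASC1, with 3, 9, 0 and 1, and RPL7A, with 1, 7, 5 and 0. RPL7A and RPL7B are near-identical paralogs, and how reads matching both were counted is not given in the sources used here.

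Other noncoding RNA genes were dense in the same libraries. The snoRNA genes with their own promoter were below the 6 excluded snoRNA genes, with a ratio of 0.595 (0.451 to 0.794), 0.630 (0.531 to 0.750), 0.686 (0.517 to 0.923) and 0.722 (0.397 to 1.4). All 65 together exceeded the 259 tRNA genes 1.82 (1.56 to 2.11), 1.95 (1.78 to 2.14), 1.45 (1.25 to 1.66) and 2.03 (1.49 to 2.75) times. The 6 entries for spliceosomal snRNA genes fell into 5 merged windows. Against these the ratios of all 65 were 1.08 (0.743 to 1.62), 1.19 (0.937 to 1.54), 1.00 (0.704 to 1.47) and 1.24 (0.569 to 3.19), which do not separate the groups.

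The libraries ranked the 65 genes in a similar way. Across the 65 genes, Spearman's rho of positions was 0.777 between Xrn1-TAP and Dcp2-TAP, 0.806 between Dcp2-TAP and Lsm1-TAP, and 0.631 between Xrn1-TAP and Lsm1-TAP. Against the shallower No-TAP it was 0.476, 0.521 and 0.456. These are descriptions over genes, which share windows, lengths and the split between gene arrangements, and genes are not independent replicates. Among the 42 genes with their own promoter the values were 0.681, 0.768 and 0.541 between tagged libraries and 0.453, 0.492 and 0.480 against No-TAP. Few positions were identical between libraries. Of the 267 Xrn1-TAP positions at these genes 19 were also in Dcp2-TAP, which is 7.12% of them and 2.70% of the 704 in Dcp2-TAP, beside 2.17% and 0.884% over the genome.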

How the data were processed

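The deposited tables give, per the file headers, a chromosome, an index, and forward, reverse and summed tag counts. These counts are whole numbers that the authors did not normalise in any way the headers record. Aligner, build and any pooling of replicates: not given in the sources used here. Strands of genes were read from systematic names in the RefSeq table (assembly R64), and no sequences are shown. Gene arrangement, box and target were assigned from general knowledge. Windows within a class were merged before counting. Densities were compared with an even spread over the nuclear genome outside chromosome XI and the ribosomal DNA. Intervals are exact Poisson for folds, Clopper-Pearson for shares and conditional binomial for ratios. Python 3.11.15, scipy 1.17.1 and pandas 2.3.3 were used, and the tests were tried on simulated counts. The simulated counts were Poisson, as the tests assume, so they do not show how the tests behave on clustered positions. The genes, classes and lists were chosen with earlier results of these data known. The text names the 12 fullest genes with their own promoter, 5 in polycistrons and 3 in introns by their worst rank over the tagged libraries, each leading polycistron gene, and genes called in No-TAP or apart from it. Pathway genes called and genes added for their downstream counts were named after their values were seen.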

Additional observations from a re-analysis of the deposited data

How the results depend on the processing

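With 1 library per strain, leaving out a replicate was not possible. No paired analysis was possible because the labels carry no replicate numbers. The moves of the gene table by 80 bp, and the alternatives to the zone ratios, were chosen after seeing the data. The density of genes with their own promoter, and its ratio to genes in polycistrons or introns in the tagged libraries, kept their direction and their side of 1 under all alternatives run, although that ratio ranged from 1.33 to 2.61 in Xrn1-TAP, from 1.59 to 3.98 in Dcp2-TAP and from 1.54 to 3.25 in Lsm1-TAP. Where a value below moved, the cause was not tested. The limits are depth, above all the 4123 positions of No-TAP, and the uncertain build.

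The number of snoRNA genes called was 16, 19, 13 and 3 with a flank of 100 bp, beside 3.35%, 6.41%, 3.57% and 1.21% of all genes. By tags it was 44, 54, 43 and 27, beside 24.5%, 26.8%, 25.9% and 15.8% of all genes. Thinned to the depth of No-TAP it was 3.65, 5.20 and 2.60, beside 1.52%, 1.60% and 1.35%. In No-TAP it was also 10 with a flank of 500 bp (2.31% of all genes), 3 among positions with at least 2 tags (0.562%), and 2 and 3 with genes moved 30 and 80 bp higher (1.54% and 1.57%). The fold of SNR41 in Dcp2-TAP was 0.975 with a flank of 100 bp. That of SNR190 in No-TAP was 0 with a flank of 100 bp or genes moved 80 bp lower.

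The ratio of leading to later polycistron genes with a flank of 100 bp was 0 in Xrn1-TAP and 0.880 in Lsm1-TAP, and it had no value in No-TAP, where both were at 0. With genes moved 30 and 80 bp lower it was 2.16 and 1.85 in Xrn1-TAP. In No-TAP it was 7.50 without the fullest gene (SNR11) and polycistron (SNR78 to SNR72), 8.65 with genes moved 80 bp lower, and without a finite value at 30 bp lower, all but the last with intervals that hold 1. The ratio of upstream to gene density was 1.12 in Xrn1-TAP and 1.13 in Lsm1-TAP with genes 80 bp lower, and 1.37 in No-TAP with genes 80 bp higher.

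In No-TAP the density in polycistrons and introns was 1.30 with a flank of 100 bp. There, the ratio of own promoter to polycistron or intron rose above 1 beyond its interval with a flank of 100 bp (5.19), by tags (1.28), with genes 30 bp (1.96) and 80 bp (2.40) lower, and without leading polycistron genes (2.75).

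The downstream ratio to No-TAP lost its call in Xrn1-TAP with flanks of 100 bp (2.05) and 500 bp (1.57), at least 2 tags (3.04) and genes 30 bp lower (2.69), and was 1.00 with genes 80 bp lower. In Dcp2-TAP the same flanks gave 1.60 and 1.66, at least 2 tags 2.84 and genes 80 bp lower 1.18. By tags the Lsm1-TAP value was 1.74, with an interval above 1. Over all 65 genes the Lsm1-TAP ratio fell below 1 beyond its interval with a flank of 500 bp (0.757), by tags (0.667), with genes 30 bp lower (0.738) and without the fullest gene and polycistron (0.743). Upstream, its interval held 1 with a flank of 100 bp (0.720), at least 2 tags (0.724), genes 30 bp (0.726) and 80 bp (0.897) higher, and without genes beside other starts or RNA genes (0.694).

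By tags 16, 20 and 12 genes were above No-TAP, beside 25.1%, 26.0% and 26.1% of all genes, and 14, 16 and 16 below, beside 17.2%, 17.0% and 17.2%. With scaling to the median ratio 2 in Xrn1-TAP and 3 in Dcp2-TAP were above, beside 0.942% and 0.992% of all genes, and 0 in Lsm1-TAP below, beside 0.0661%. With a flank of 100 bp 0 were below in Dcp2-TAP and Lsm1-TAP, beside 0.512% and 0.264%. Of the 33 pathway genes 15, 20, 13 and 8 were called by tags, beside 28.5%, 38.6%, 28.5% and 11.1% of all coding genes, and 2 in Lsm1-TAP with 150 bp upstream, beside 2.12%.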
